A study of Mus musculus with 4 samples.

Results

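The comparison described here is osteoblast (OB) induction in C3H10T1/2 cells that had received an siRNA against DNMT1: the library labelled siDNMT1_OB was set against the library labelled siDNMT1. Members are all genes with a mean level of at least 1 CPM (a library-size-scaled read count) over the 4 libraries of the series, which kept 13233 of 54532 genes in the table, 10125 of them protein-coding. C3H10T1/2 is an established mouse mesenchymal stem cell line of embryonic C3H origin with the capacity to become an osteoblast, chondrocyte, adipocyte or myocyte. All cells were grown in MEM with 10% FBS and were transfected for 48 h. The control group (labelled control) and the OB group received a control siRNA, whereas the siDNMT1 and siDNMT1_OB groups received siRNA of DNMT1, the maintenance DNA methyltransferase. The OB and siDNMT1_OB groups were then kept for 3 days in medium with 50 µM ascorbic acid, 10 mM glycerophosphate and 0.001 µM dexamethasone, and the other groups were left untreated. The paper's methods describe RNA taken before or after induction. Effects of the medium, of days in culture and of time since transfection therefore cannot be told apart here. Each group is 1 library of poly(A) RNA, so none of the differences below has a replicate check, and intervals cover counting error only.

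Each component of the induction medium has a known action. Ascorbic acid is a cofactor of the hydroxylases that stabilise collagen, glycerophosphate supplies phosphate for mineral, and dexamethasone binds the glucocorticoid receptor, a transcription factor that raises and lowers many genes in most cell types. In mesenchymal cells RUNX2 and SP7 drive the osteoblast programme, alkaline phosphatase (Alpl) marks early osteoblasts, and osteocalcin (Bglap) and bone sialoprotein (Ibsp) mark later ones. Differentiating cultures usually divide less as matrix is laid down.

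The siRNA target was examined first. Dnmt1 (ENSMUSG00000004099, chr9:20907209-20959888 on mm10) was at 7195 counts (265 CPM) in control and 3375 counts (132 CPM) in siDNMT1, and at 1931 counts (85.4 CPM) in OB and 2492 counts (93.1 CPM) in siDNMT1_OB. The uninduced pair thus followed its labels, whereas Dnmt1 was not lower in siDNMT1_OB than in OB. The induced library is therefore called the library labelled siDNMT1_OB, and every direction below compares that library with siDNMT1 under those labels. From siDNMT1 to siDNMT1_OB Dnmt1 had a log2 fold change of -0.50, and with control siRNA it fell by 1.63 on the log2 scale.

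Library totals lay between 22296046 and 27367792 counts, and 25608719 (siDNMT1) and 26912489 (siDNMT1_OB) stood behind the comparison. TMM scaling factors were 0.991 to 1.01 and mitochondrial genes took 2.53% to 2.83% of counts. Markers of the labelled cell type were high in both libraries: 16 mesenchymal markers summed to 43383 CPM in siDNMT1 and 43001 CPM in siDNMT1_OB. Of other lineages of such cells, 7 smooth muscle markers summed to 3547 and 3984 CPM, 8 chondrocyte markers to 686 and 757 CPM, 10 osteoblast markers to 309 and 367 CPM and 8 adipocyte markers to 45.1 and 92.9 CPM. Single genes gave most of the first sums: Acta2 3411 and 3671 CPM, Col2a1 525 and 516 CPM and Spp1 206 and 271 CPM. Of the 10 osteoblast markers 6 were at or under 3 counts in siDNMT1 and 4 in siDNMT1_OB. Among adipocyte markers Fabp4 went from 2.81 to 48.8 CPM, whereas Pparg had 33.9 and 32.1 CPM. Markers of other cell types were low, with summed levels of 10.5 and 11.7 CPM for 10 leukocyte genes, 6.28 and 8.03 CPM for 8 endothelial genes, 0.820 and 1.08 CPM for 8 epithelial genes and 0.703 and 0.374 CPM for 6 erythroid genes. The 7 neuronal markers summed to 166 and 337 CPM, of which Map2, a cytoskeletal gene that rose from 3156 to 8306 counts, gave 123 and 310 CPM, while Tubb3 fell from 360 to 126. Skeletal muscle markers summed to 1.29 and 1.94 CPM, and the parts that other cells may have in the results were not tested. In bulk RNA, fewer cells of a type and less RNA per cell cannot be told apart.

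Below, a pair of counts is always given in the order siDNMT1, then siDNMT1_OB. A gene is said to have risen or fallen where its log2 fold change reached 1 in size and its reads in the 2 libraries differed by an exact binomial test (Benjamini-Hochberg adjusted p under 0.05), which compares these libraries and not the conditions. By this rule 903 genes were higher (6.82% of those tested) and 358 were lower (2.71%) in siDNMT1_OB. The response leaned upward in size as well as in number. The log2 change was 2 or more for 242 of the higher genes, 4 or more for 41 and 5 or more for 22, whereas 27 of the lower genes passed 2 and 1 passed 4. Most of the transcriptome moved little: 9522 genes (72.0%) stayed within 0.5 on the log2 scale, and the median over all genes tested was 0.00. Of the 41 genes with a log2 change of 4 or more, 34 were under 1 CPM in siDNMT1, as the plot of level against change shows.

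**Figure D1:**
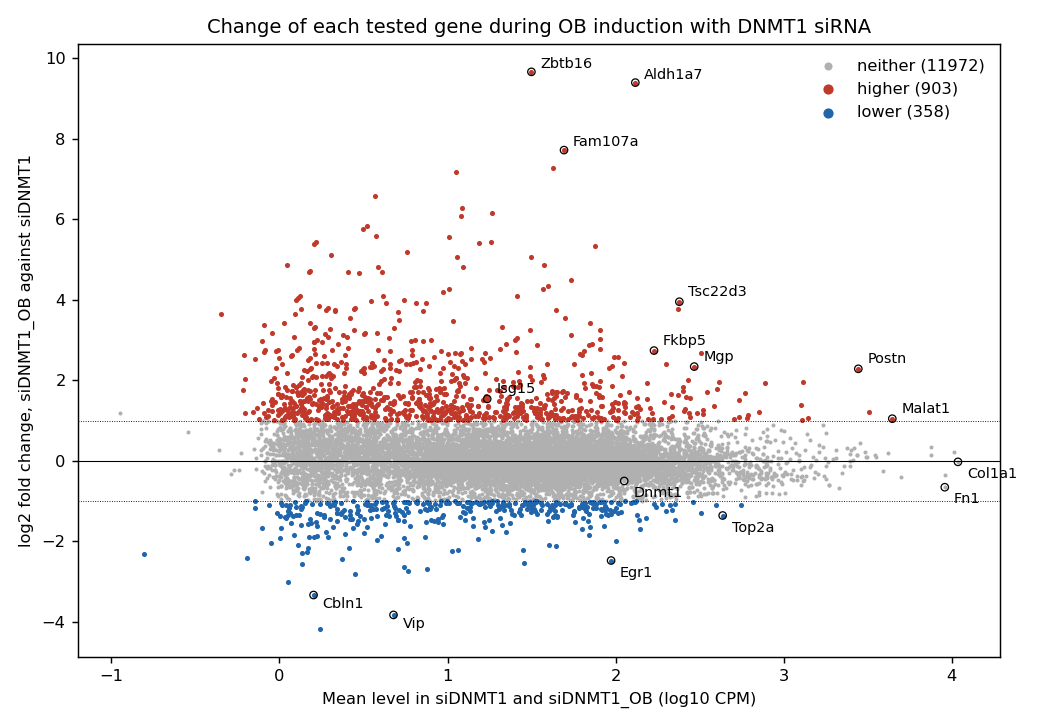
Each point is 1 of the 13233 genes tested; the x axis is the mean level in siDNMT1 and siDNMT1_OB (log10 CPM) and the y axis the log2 fold change between them, with 903 higher genes in red, 358 lower genes in blue and the rest grey. Zbtb16, Aldh1a7 and Fam107a stand highest at fitted values of 9.65, 9.39 and 7.71, whereas Col1a1 lies at -0.03 and Fn1 at -0.66. Zbtb16 had 0 counts in siDNMT1, so its fitted value rests on the prior count and does not rank it above Aldh1a7.

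Genes known to respond to glucocorticoids had the highest median of the 51 gene lists examined. Of 41 listed, 35 were tested, and 22 rose and none fell, against 6.82% and 2.71% of all genes tested, with a median log2 fold change of 1.72. Tsc22d3 (GILZ, a mediator of glucocorticoid action; chrX:140539528-140600659) had levels of 27.4 and 29.0 CPM in the uninduced control and siDNMT1 libraries, against 441 in OB and 450 in siDNMT1_OB, a log2 fold change of 3.95 (95% interval 3.85 to 4.06). Fkbp5, which binds HSP90 and dampens the receptor, went from 1129 to 7871 counts (2.74, 2.65 to 2.83). The receptor itself, Nr3c1, had 2780 and 2390 counts, a log2 fold change of -0.28.

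Of 11 genes listed as transcription factors and regulators, 6 rose. Zbtb16 (PLZF, which promotes osteogenic differentiation; chr9:48654297-48836222) was at 0 counts in siDNMT1 and 1688 in siDNMT1_OB, at least 539-fold higher when the floor of 3 counts is taken for siDNMT1. Hif3a, an inhibitory hypoxia-inducible factor subunit, went from 0 to 199 counts, at least 63.5-fold higher. The clock repressor Per1 rose from 790 to 4066 counts (2.30), Klf9 from 537 to 1849 (1.72), Klf15 from 17 to 253 (3.68) and Cebpd, an early adipogenic factor, from 1045 to 4713 (2.11). Values for the other factors were 0.05 for Cebpb, 0.55 for Foxo3, -0.62 for Foxo1, -0.98 for Bcl6 and -0.07 for the signalling adaptor Irs2.

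Effector genes of the list rose in 13 of 17 cases. Fam107a, an actin-binding stress gene, had 10 and 2628 counts (7.71, 7.09 to 9.04). The metallothioneins Mt1 and Mt2, which bind zinc and copper, rose from 1581 to 4383 and from 43 to 286 counts (1.41 and 2.62). Glutamine synthetase (Glul) rose from 434 to 3036 counts (2.74), the EGF receptor inhibitor Errfi1 from 898 to 5076 (2.43), monoamine oxidase B (Maob) from 15 to 280 (3.99), the phosphoinositide 3-kinase subunit Pik3r1 from 2846 to 10516 (1.82) and the pyruvate dehydrogenase kinase Pdk4 from 3837 to 9835 (1.29). Sgk1, a serum- and glucocorticoid-regulated kinase, had levels of 155, 217, 117 and 389 CPM in control, OB, siDNMT1 and siDNMT1_OB, so its log2 fold change was 1.73 here and 0.49 with control siRNA. Angptl4 (0.08), Ddit4 (0.33), Acsl1 (-0.18) and Mfsd2a (0.77) did not pass. With an assumed biological coefficient of variation of 0.2 the list kept 21 higher genes, and with 0.4 it kept 7.

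The promoter of Fam107a is shown because it is 1 of few in the list that hold a spaced pair of glucocorticoid receptor half-sites close to the start. The sequence is the 250 bases before 1 of the 3 starts that the RefSeq table gives, one that lies inside the gene as counted (RefSeq, GRCm38.p6, chr14:8309778-8310027, minus strand), with the match to AGAACANNNTGT, found here on the opposite strand 118 to 107 bases before the start, in capitals.
Fam107a: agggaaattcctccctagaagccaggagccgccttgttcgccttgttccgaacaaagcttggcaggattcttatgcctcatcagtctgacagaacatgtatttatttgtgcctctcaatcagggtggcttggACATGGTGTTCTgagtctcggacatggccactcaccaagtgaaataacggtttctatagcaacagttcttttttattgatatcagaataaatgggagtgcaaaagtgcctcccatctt
Searched on both strands in windows of the same length, this motif was in 3 of 43 promoters of the list (Fam107a and Sgk1) and in 0.368% of 32851 promoters. A match is a run of letters and not evidence of binding.

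Among 16 circadian clock genes tested, 2 rose and 2 fell (12.5% each way, against 6.82% and 2.71% of all genes). The repressors Per1 and Per2 (521 and 1241 counts, 1.19) rose, whereas the nuclear receptors Nr1d1 (478 and 180 counts) and Nr1d2 (1850 and 446 counts), which repress the core activator Arntl, fell by 1.46 and 2.11 on the log2 scale. Arntl and Clock, the activators, had changes of -0.10 and 0.29, and Dbp, a clock output, -0.52. The retinoid-related orphan receptor Rora had 217 and 307 counts (0.43).

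**Figure D2:**
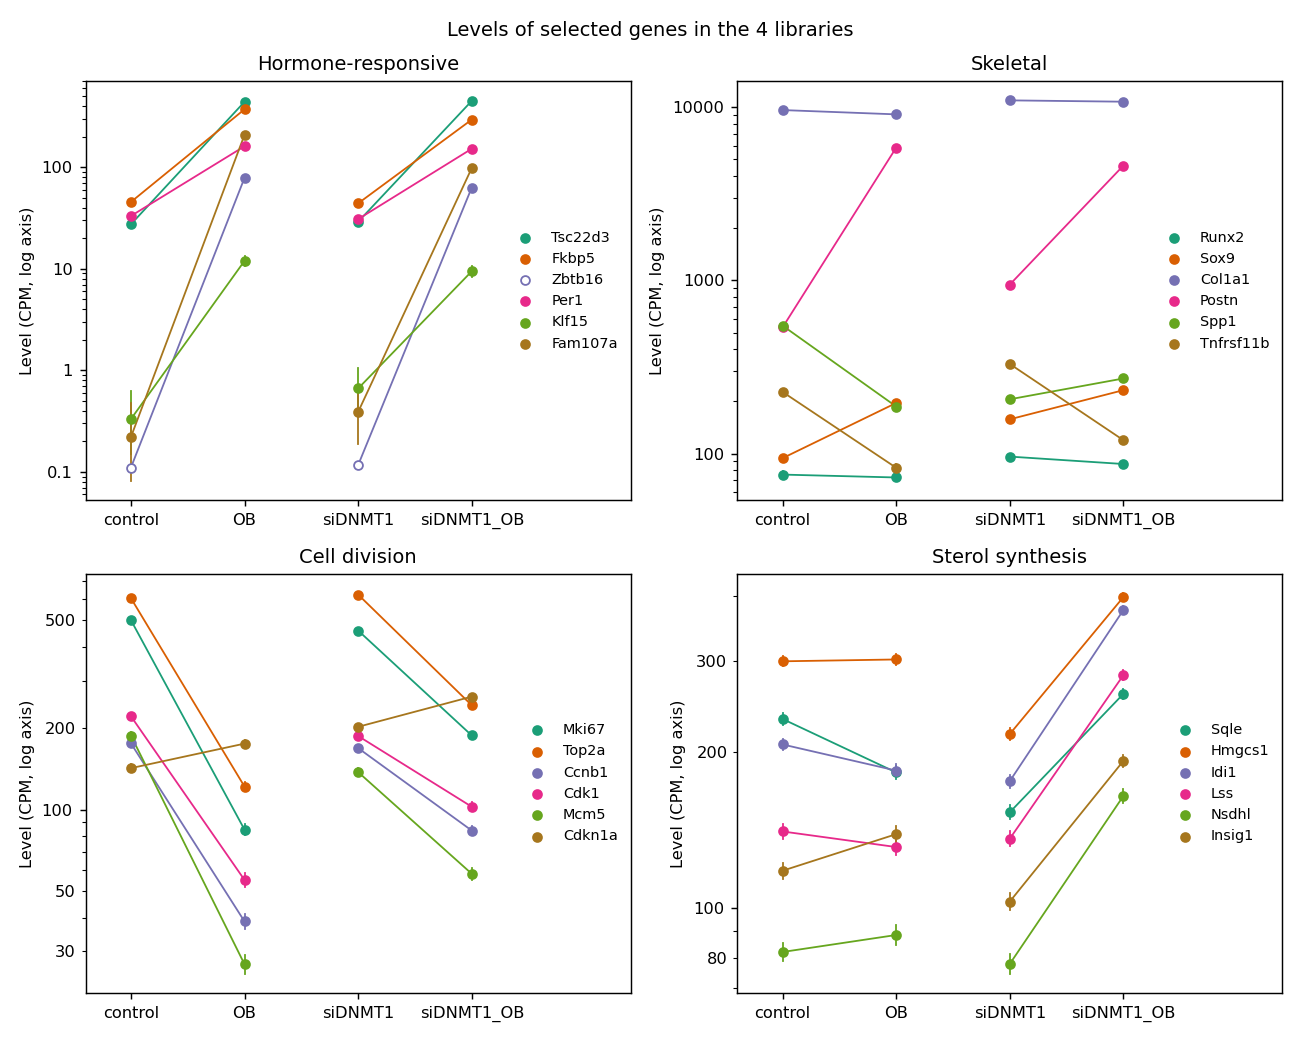
Levels (CPM, log axis) of 24 genes in the 4 libraries, with a line from each uninduced to its induced library and bars for 95% intervals of the counts; open symbols stand at the floor of 3 counts. Lines of the hormone-responsive genes climb in both inductions, and Mki67 ends at 188 CPM in siDNMT1_OB and 84.4 CPM in OB. Idi1 goes from 176 CPM in siDNMT1 to 376 CPM in siDNMT1_OB, against 207 CPM in control and 184 CPM in OB.

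Several classical osteoblast markers had low counts in both libraries. Alpl had 1 and 0 counts, Sp7 1 and 4, Bglap 1 and 3, Bglap2 1 and 0 and Ibsp 3 and 17, all below the level needed for testing. Of 23 osteoblast transcription factors tested, none rose and 2 fell (8.70%, against 2.71% of all genes), with a median log2 fold change of -0.26. Runx2 (chr17:44495987-44814797) had levels of 75.5 CPM in control, 72.7 in OB, 96.0 in siDNMT1 and 87.0 in siDNMT1_OB, and its log2 fold change was -0.14 (-0.22 to -0.06). The homeobox factors Dlx5 and Msx2 had changes of -0.53 and -0.26. Both genes that fell were lineage factors, Dlx6 (49 and 22 counts, -1.14) and Lef1, which carries the WNT signal to DNA (163 and 45 counts, -1.87). Values of early mesenchymal factors were -0.26 for Twist1, -0.21 for Prrx1 and 0.55 for Snai1.

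Within 25 bone matrix and mineralization genes tested, 7 rose and 1 fell (median 0.35). The 7 comprised 4 matrix proteins, 2 receptors and 1 gene of the phosphate and pyrophosphate group. Periostin (Postn, an adhesive protein of periosteum; chr3:54361109-54391037) rose from 24241 to 123314 counts (2.28, 2.26 to 2.30). Matrix Gla protein (Mgp), an inhibitor of mineralization, rose from 2479 to 13109 counts (2.34), osteomodulin (Omd) from 428 to 1055 (1.23) and Tnn from 3 to 30 (2.62, 1.57 to 5.62). The vitamin D receptor Vdr (1213 and 2709 counts, 1.10), the parathyroid hormone receptor Pth1r (12 and 43, 1.62) and the sphingomyelinase Smpd3 (294 and 929, 1.59), which is needed for bone mineralization, rose as well. Osteoprotegerin (Tnfrsf11b), the decoy receptor that restrains osteoclast formation, fell from 8431 to 3195 counts (-1.46). Osteopontin (Spp1) had levels of 548, 187, 206 and 271 CPM in control, OB, siDNMT1 and siDNMT1_OB, so its log2 fold change was 0.40 here and -1.55 with control siRNA. The collagen I chains, the main protein of bone matrix, had changes of -0.03 for Col1a1 and 0.21 for Col1a2. The phosphate transporter Slc20a1 was at -0.00 and the pyrophosphate exporter Ank at -0.22.

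Of 17 chondrocyte genes tested, 8 rose and none fell, with a median of 0.94 (0.53 at a mean of at least 5 CPM), while aggrecan (Acan), the defining cartilage proteoglycan, was at 0 counts in both libraries. Chondromodulin (Cnmd) went from 2 to 67 counts (4.05, 3.09 to 8.08), the matrilins Matn2 and Matn4 from 1622 to 6488 and from 132 to 819 (1.94 and 2.55), Col11a1 from 2755 to 11595 (2.01), Col9a2 from 8 to 99 (3.27) and cartilage oligomeric matrix protein (Comp) from 32 to 106 (1.61). The master factor Sox9 had levels of 94.0 CPM in control, 196 in OB, 158 in siDNMT1 and 232 in siDNMT1_OB, a log2 fold change of 0.56 (0.50 to 0.62). Its target Col2a1 was at 390, 207, 525 and 516 CPM in the same order, a change of -0.02.

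Of 28 adipocyte genes tested, 7 rose and 2 fell (median 0.53). Fabp4, a fatty acid carrier of adipocytes, rose from 72 to 1305 counts (4.08, 3.77 to 4.48), and apolipoprotein E (Apoe, 64 and 351 counts, 2.36), the lipase inhibitor G0s2 (17 and 86, 2.15), the lipid droplet protein Plin4 (1319 and 4273, 1.63) and the liver X receptor Nr1h3 (6 and 47, 2.55) also rose. Pparg, the master regulator, had 868 and 860 counts (-0.08) and Cebpa 189 and 291 (0.55). Adiponectin (Adipoq) had 1 and 0 counts, and Cd36 and Cfd had none. Dlk1, which holds preadipocytes back, fell from 131 to 50 counts (-1.42), as did Ebf2 from 48 to 22 (-1.12).

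Of 25 contractile and smooth muscle genes tested, 6 rose and none fell (median 0.29). Calponin (Cnn1) rose from 9 to 177 counts (3.96, 3.28 to 5.39), the myosin light chain kinase Mylk from 172 to 1182 (2.70), leiomodin (Lmod1) from 694 to 2748 (1.92) and smoothelin (Smtn) from 1430 to 3691 (1.30). Smooth muscle actin (Acta2) was at 987 CPM in control, 1124 in OB, 3411 in siDNMT1 and 3671 in siDNMT1_OB, which is a log2 fold change of 0.11 from a level already high before induction. Among 18 striated muscle genes 3 rose (16.7%, against 6.82% of all genes), namely Tnni1 (43 and 221 counts, 2.25), dystrophin (Dmd, 93 and 268, 1.44) and nebulin (Neb, 21 and 53, 1.20). Mef2c, a muscle regulator, was at -0.07 and Hdac9, its repressor, at -0.18.

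Extracellular matrix genes changed in several families, as the plot of all gene lists shows. Small leucine-rich proteoglycans, which bind collagen fibrils, had 7 of 11 tested genes higher and 1 lower (median 1.48). Asporin (Aspn) rose from 4303 to 17411 counts (1.95), osteoglycin (Ogn) from 7210 to 21468 (1.51), Ecm2 from 133 to 540 (1.94) and Prelp from 1011 to 3187 (1.59). Biglycan (Bgn) had a change of 0.43 and decorin (Dcn) of 0.34, whereas fibromodulin (Fmod) fell from 80 to 21 counts (-1.89).

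Of 31 collagen genes tested, 13 rose and 1 fell (median 0.85). These were mostly chains of minor and network collagens: Col12a1 rose from 17828 to 48975 counts (1.39), Col6a1 from 23112 to 50632 (1.07), Col6a2 from 11045 to 26576 (1.20), Col4a1 from 9842 to 22516 (1.13), Col15a1 from 242 to 908 (1.84), Col5a3 from 853 to 3218 (1.85) and Col14a1 from 8 to 78 (2.94). Fibrillar chains outside this set had changes of 0.08 for Col3a1, 0.13 for Col5a1 and -0.14 for Col5a2. Col8a1 fell from 164 to 56 counts (-1.58). An assumed coefficient of variation of 0.2 left 8 collagen genes higher and 1 lower, and 0.4 left none. Among 28 genes that process collagen 3 rose (10.7%, against 6.82% of all genes): lysyl oxidase (Lox), which cross-links collagen and elastin, rose from 50192 to 120561 counts (1.20, 1.19 to 1.22), transglutaminase 2 (Tgm2) from 219 to 916 (1.99) and the propeptide protease Tll1 from 597 to 1670 (1.42). None of 12 genes of the collagen hydroxylase group, enzymes that need ascorbic acid and their partners, passed, and they ranged from -0.96 for P4ha1 to 0.54 for P4ha2.

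Elastic fibre, basement membrane and adhesive glycoprotein genes rose in 10 of 42 cases and fell in 1 (median 0.28). Versican (Vcan) rose from 13663 to 55358 counts (1.96), tenascin C (Tnc) from 4173 to 14332 (1.72), thrombospondin 1 (Thbs1) from 5529 to 14865 (1.36), elastin (Eln) from 116 to 388 (1.66) and the laminin chain Lama3 from 14 to 65 (2.00). Fibulin 5 (Fbln5), an elastic fibre organiser, fell from 19379 to 9537 counts (-1.09), and fibronectin (Fn1), the most abundant of them in reads, had a log2 fold change of -0.66. Of 19 integrin genes, the receptors for these proteins, 7 rose and none fell: Itga8 rose from 286 to 2598 counts (3.11), Itga3 from 142 to 1208 (3.01), Itga10, a collagen receptor, from 34 to 291 (2.96) and Itga1, another, from 321 to 1360 (2.01). The widely used subunits Itgb1, Itgav and Itga5 had changes of 0.31, -0.18 and 0.51. Among 29 matrix proteases and inhibitors 5 rose, including Adamts15 (4 and 88 counts, 3.84), Mmp19 (196 and 840, 2.03) and Adamts9 (92 and 304, 1.64), and the inhibitors Timp1, Timp2 and Timp3 had values of -0.72, 0.71 and 0.20.

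**Figure D3:**
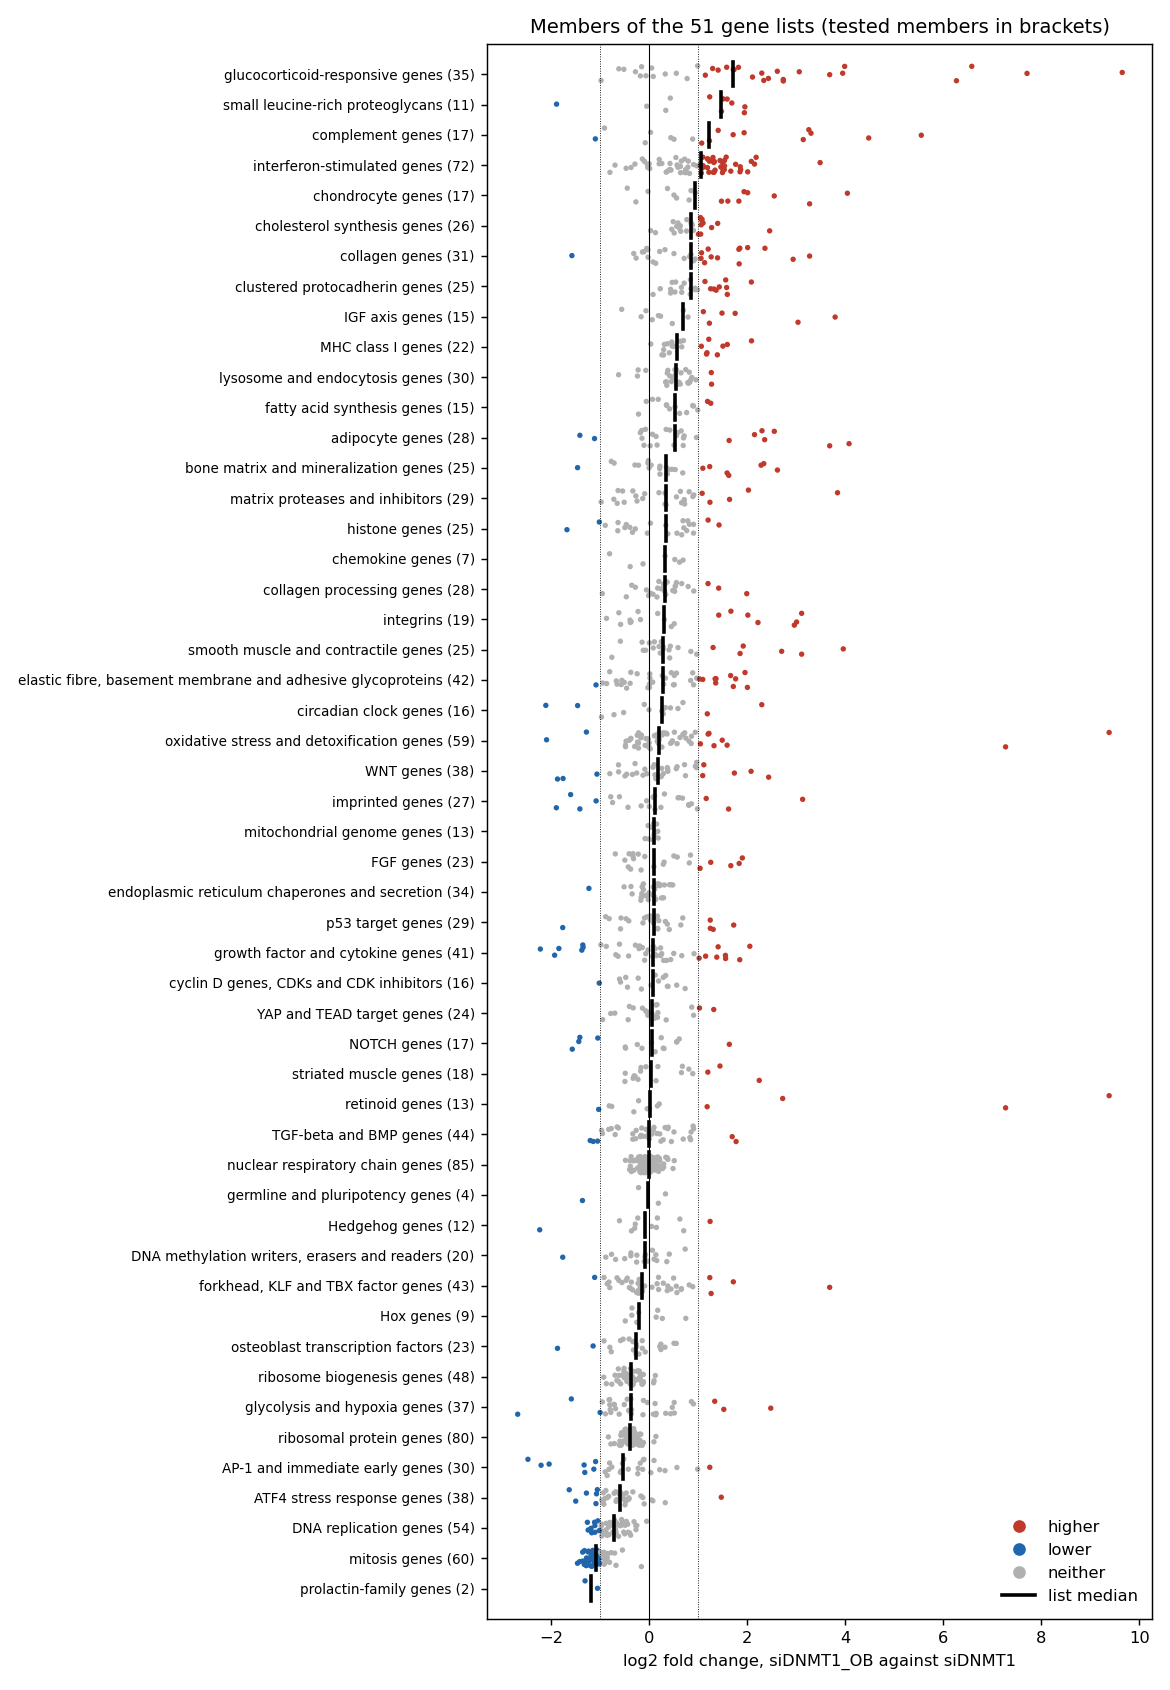
Each row is 1 of 51 gene lists, with the number of tested members in brackets; points are genes by log2 fold change of siDNMT1_OB against siDNMT1 (red higher, blue lower, grey neither) and black bars are list medians, dotted lines marking -1 and 1. Glucocorticoid-responsive genes (median 1.72), small leucine-rich proteoglycans (1.48), complement genes (1.23) and interferon-stimulated genes (1.05) stand on the right, DNA replication (-0.72) and mitosis genes (-1.08) on the left, and respiratory chain genes (-0.01) form a tight cloud at 0.

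In growth factor signalling, the IGF axis had 6 of 15 tested genes higher and none lower (median 0.70, but 0.35 at a mean of at least 5 CPM and 0.47 with no filter). The ligand Igf1 rose from 231 to 819 counts (1.75), its receptor Igf1r was at -0.56, the binding protein Igfbp5 rose from 8 to 143 counts (3.80, 3.08 to 5.34), Igfbp4 from 505 to 1239 (1.23) and Pappa2, a protease that frees IGF from its binding proteins, from 142 to 1233 (3.04). Igfbp5 had levels of 1.07, 62.3, 0.312 and 5.34 CPM in control, OB, siDNMT1 and siDNMT1_OB. In the FGF family 5 of 23 rose (median 0.10, or -0.090 at a mean of at least 5 CPM), namely the ligands Fgf2 (72 and 274 counts, 1.84), Fgf10 (186 and 467, 1.26) and Fgf14 (119 and 399, 1.67), the receptor Fgfr2 (777 and 3037, 1.90) and the decoy Fgfrl1 (1439 and 3090, 1.04). None of 11 feedback genes that FGF signals switch on passed, with -0.50 for Spry2 and -0.43 for Dusp6.

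TGF-beta and BMP genes had 2 higher and 3 lower of 44 (median -0.00), or 4.55% and 6.82%, against 6.82% and 2.71% of all genes. The activin inhibitor follistatin (Fst) rose from 928 to 3142 counts (1.69), whereas the BMP inhibitor gremlin (Grem1) fell from 6132 to 2900 (-1.14), Bmp4 from 4261 to 2144 (-1.05) and the target Id4 from 146 to 65 (-1.20). None of 15 receptors and SMADs passed. Of 38 WNT genes, 5 rose and 3 fell (median 0.19), or 13.2% and 7.89%, against 6.82% and 2.71% of all genes. Genes that rose were the receptor Fzd9 (136 and 479 counts, 1.74), the coreceptor Lrp5 (1576 and 3512, 1.09), the inhibitor Dkk2 (44 and 102, 1.12) and the feedback genes Nkd1 (48 and 281, 2.44) and Nkd2 (15 and 73, 2.08). Genes that fell were Lef1, Lgr6 (76 and 22, -1.76) and Rspo3 (808 and 402, -1.07). NOTCH genes had 1 of 17 higher, Notch3 (992 and 3224, 1.64), and 4 lower, including Hey1 (112 and 38, -1.57) and Jag2 (76 and 28, -1.44). These are 5.88% higher and 23.5% lower, against 6.82% and 2.71% of all genes. Of 12 Hedgehog genes 1 rose and 1 fell (8.33% each way, against 6.82% and 2.71% of all genes). The coreceptor Boc rose from 1450 to 3587 counts (1.24), the target and effector Gli1 fell from 449 to 98 counts (-2.23, -2.59 to -1.94), whereas the receptor Ptch1, also a target, had a change of -0.61.

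Of 41 other growth factor and cytokine genes, 8 rose and 6 fell (median 0.08), or 19.5% and 14.6%, against 6.82% and 2.71% of all genes. The PDGF receptor Pdgfra rose from 3600 to 11062 counts (1.56), the EGF receptor Egfr from 1335 to 3701 (1.41), stem cell factor (Kitl) from 1730 to 5329 (1.56) and Vegfd from 815 to 3070 (1.85). Brain-derived neurotrophic factor (Bdnf) fell from 3046 to 1225 counts (-1.38), hepatocyte growth factor (Hgf) from 3317 to 1359 (-1.35), the IL-33 receptor Il1rl1 from 1182 to 263 (-2.22) and cyclooxygenase 2 (Ptgs2), a classic glucocorticoid-repressed gene, from 2781 to 808 (-1.84). None of 7 chemokine genes passed, and the most abundant in reads, Cxcl12, had 59888 and 78329 counts (0.32).

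Immediate early genes, which growth factors and serum switch on within minutes, had 7 of 30 lower and 1 higher (median -0.53). These are 23.3% lower and 3.33% higher, against 2.71% and 6.82% of all genes. Egr1 fell from 4081 to 765 counts (-2.47, -2.59 to -2.37), Egr2 from 489 to 109 (-2.21), Egr3 from 239 to 59 (-2.04), Junb from 2542 to 1056 (-1.33) and Fosl1 from 744 to 354 (-1.13). Klf2 rose from 501 to 1236 (1.24). Jun and Myc were at 0.21 and -0.58. Of 24 YAP and TEAD targets 2 rose (8.33%, against 6.82% of all genes; median 0.05), Tead4 (477 and 1245, 1.32) and tissue factor (F3, 3133 and 6667, 1.03), and the common reporters Ctgf (0.91) and Cyr61 (-0.95) lay on opposite sides of 0.

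In metabolism, all 26 cholesterol synthesis and uptake genes tested were above 0, 10 of them rose and none fell, and the median was 0.86. Isopentenyl diphosphate isomerase (Idi1; chr13:8885501-8892451) had 4501 and 10075 counts (1.10, 1.05 to 1.15), lanosterol synthase (Lss) 3483 and 7538 (1.05), Hsd17b7 1553 and 3924 (1.27), Tm7sf2 390 and 1077 (1.40), Nsdhl 1994 and 4401 (1.08) and Sc5d 1325 and 2888 (1.06). The enzymes Hmgcs1 (0.88) and Sqle (0.76), the sterol sensor partner Insig1 (0.90) and the transcription factor Srebf2 (0.13) were above 0 without passing. With control siRNA none of the 26 passed in either direction and the median was -0.01. Idi1 had levels of 207 CPM in control, 184 in OB, 176 in siDNMT1 and 376 in siDNMT1_OB, so it was highest in the library labelled siDNMT1_OB and the other 3 lay close together. With an assumed coefficient of variation of 0.2, 2 of the 10 passed, and with 0.4 none.

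The promoter of Hmgcs1 is printed because it holds the only match among 21 promoters of this list to the sterol regulatory element core TCACNCCAC. It is the 250 bases before the start (RefSeq, GRCm38.p6, chr13:119690101-119690350, plus strand), with the match 137 to 129 bases before the start in capitals.
Hmgcs1: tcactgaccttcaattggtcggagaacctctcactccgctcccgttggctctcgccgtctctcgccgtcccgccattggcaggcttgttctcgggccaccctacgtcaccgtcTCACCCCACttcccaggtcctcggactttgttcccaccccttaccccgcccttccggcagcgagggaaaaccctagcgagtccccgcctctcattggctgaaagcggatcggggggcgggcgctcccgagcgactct
The core was in 1.05% of 32851 promoters of the same length, searched on both strands. The CCAAT box (CCAAT, both strands) was in 17 of the 21 promoters (81.0%) and in 33.8% of all, and no match to a motif says only that its letters are not in this window.

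Fatty acid synthesis genes had a median of 0.53 and 2 of 15 higher (13.3%, against 6.82% of all genes), the desaturase Scd1 (4240 and 10118 counts, 1.19) and the elongase Elovl6 (1446 and 3611, 1.26). Fasn and Acly were at 0.62 and 0.99. Lysosomal genes had 2 of 30 higher (median 0.54), the proteases Ctsd (4981 and 12524, 1.27) and Ctsf (107 and 273, 1.27), against 6.82% of all genes higher, and no fatty acid synthesis or lysosomal gene was called with an assumed coefficient of variation of 0.2. Retinoid genes had 4 of 13 higher and 1 lower, with a median of 0.01 and 7 genes above and 6 below 0. The retinaldehyde dehydrogenase Aldh1a1 went from 12 to 2263 counts (7.27, 6.69 to 8.45) and its neighbour Aldh1a7 from 8 to 7000 (9.39, 8.73 to 10.92), Dhrs3, which returns retinal to retinol, rose from 29 to 212 (2.72), and Cyp26b1, which degrades retinoic acid, fell from 736 to 375 (-1.03). None of 5 tested retinoid-binding and receptor genes passed. Of 59 oxidative stress and detoxification genes 8 rose and 2 fell (median 0.19), or 13.6% and 3.39%, against 6.82% and 2.71% of all genes. Glutathione transferases rose in 5 of 16 cases, for example Gsta4 (714 and 1869, 1.32) and Gstt1 (424 and 1022, 1.20). Of 17 targets of the transcription factor NRF2 none rose, 1 fell and 13 were below 0 (median -0.22). The aryl hydrocarbon receptor Ahr fell from 1663 to 405 counts (-2.09), and so did the cystine carrier Slc7a11 from 452 to 193 (-1.28).

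Glycolysis and hypoxia genes had 3 higher and 3 lower of 37 (8.11% each way, against 6.82% and 2.71% of all genes) and a median of -0.36. Gapdh, Eno1, Pgk1 and Ldha had changes of -0.81, -0.80, -0.72 and -0.80, and Pfkl fell from 3885 to 2025 counts, a change at the threshold. The mitochondrial adenylate kinase Ak4 fell from 337 to 53 counts (-2.68, -3.18 to -2.31), whereas the hypoxia-inducible factor Epas1 rose from 93 to 552 (2.48). Respiratory chain genes lay close to 0: none of 85 nuclear genes passed, with a median of -0.01 and 40 above 0, and none of 13 genes of the mitochondrial genome, which ranged from -0.08 to 0.18. Genes of the protein synthesis machinery lay below 0 by small amounts. None of 80 ribosomal protein genes passed, but 78 were below 0 with a median of -0.38 and quartiles of -0.46 and -0.31, and their summed level was 61682 CPM in siDNMT1 and 47353 CPM in siDNMT1_OB. Of 48 ribosome biogenesis genes none passed and 45 were below 0 (median -0.36). ATF4 stress response genes, which supply amino acids, had 6 of 38 lower and 1 higher (median -0.59), with Trib3 (2714 and 913 counts, -1.63), the leucine carrier Slc7a5 (7372 and 3625, -1.09) and Mthfd1l (2287 and 1146, -1.06) among those that fell. Genes of endoplasmic reticulum chaperones and secretion gave 1 of 34 lower (2.94%, against 2.71% of all genes), the transcription factor Creb3l1 (2977 and 1324, -1.23), and a median of 0.09.

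Mitosis genes lay below 0 throughout. All 60 mitosis genes tested were below 0, 39 fell and none rose, against 2.71% of all genes lower, and the median was -1.08. Mki67, a marker of cycling cells (chr7:135689784-135716361), had levels of 501 CPM in control, 84.4 in OB, 459 in siDNMT1 and 188 in siDNMT1_OB, a log2 fold change of -1.29 (-1.33 to -1.24). Topoisomerase Top2a fell from 15963 to 6506 counts (-1.36), the anaphase activator Cdc20 from 4945 to 2015 (-1.36), the kinesin Kif11 from 3908 to 1682 (-1.28), Cenpf from 5144 to 1947 (-1.46), Plk1 from 2207 to 1061 (-1.12) and the transcription factor Foxm1 from 3047 to 1470 (-1.11). Cyclin B1 (Ccnb1) fell by 1.01 and Cdk1 was at -0.87. Values ranged from -1.46 for Cenpf to -0.16 for the inhibitory kinase Wee1. All 60 were nearer to 0 than with control siRNA, where 57 fell and the median was -2.19 (a difference that was not tested, since each group is 1 library). Of all 13233 genes tested, 8996 were nearer to 0 here than with control siRNA. With an assumed coefficient of variation of 0.2, 9 mitosis genes were lower, and with 0.4 none.

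All 54 DNA replication genes were below 0 as well, with 10 lower and a median of -0.72, against 47 lower and -1.86 with control siRNA. None of the 10 was lower with an assumed coefficient of variation of 0.2. The helicase subunit Mcm5 fell from 3530 to 1553 counts (-1.25), Mcm10 from 960 to 417 (-1.26), Cdt1, a licensing factor, from 1119 to 517 (-1.17) and Dut from 1478 to 677 (-1.19). Pcna (-0.62), Rrm2 (-0.38) and E2f1 (-0.05) did not pass. D-type cyclins, which drive entry into the cycle, and CDK inhibitors, which block it, had changes of 0.29 for Ccnd1, 0.34 for Ccnd2, 0.37 for Cdkn1a and 0.12 for Cdkn1b. Of the 16 genes in that list 1 fell (6.25%, against 2.71% of all genes), the phosphatase Cdkn3 (594 and 305 counts, -1.02). Of 29 p53 targets 4 rose and 1 fell (median 0.09), or 13.8% and 3.45%, against 6.82% and 2.71% of all genes. Among them were Sesn1 (788 and 1955, 1.25), Trp53inp1 (3850 and 9547, 1.25) and Gadd45a, which fell from 880 to 269 (-1.76). Poly(A)-selected RNA holds few replication-dependent histone transcripts. Of 25 histone genes tested 2 rose and 2 fell (8% each way, against 6.82% and 2.71% of all genes), among them the damage-marking variant H2afx (2802 and 1444 counts, -1.02), and the variant H2afz was at -0.90. Medians were 0.71 for 15 replication-dependent genes (2 higher, 1 lower) and -0.40 for 10 variants (1 lower). The median of the whole list was 0.34, but -0.38 with no filter and -0.13 at a mean of at least 5 CPM.

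The promoter of Top2a is shown as an example of the elements that late cell cycle genes share. It is the 250 bases before the start (RefSeq, GRCm38.p6, chr11:99024190-99024439, minus strand), with the CHR letters TTTGAA and the CCAAT box, on either strand, in capitals (TTCAAA and ATTGG are the same letters read on the other strand).
Top2a: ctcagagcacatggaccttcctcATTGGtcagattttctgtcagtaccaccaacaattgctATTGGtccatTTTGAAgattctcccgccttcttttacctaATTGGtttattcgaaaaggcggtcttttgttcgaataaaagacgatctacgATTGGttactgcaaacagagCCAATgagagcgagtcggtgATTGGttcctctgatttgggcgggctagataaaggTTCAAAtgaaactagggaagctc
TTTGAA was in 20 of 55 promoters of the mitosis list (36.4%) and 16.0% of 32851 promoters, and in 8 of 53 DNA replication promoters (15.1%). CCAAT was in 40 of the 55 (72.7%) and 33.8% of all, and in 32 of 53 DNA replication promoters (60.4%).

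The next lists hold innate immune genes. Of 72 interferon-stimulated genes tested, 37 rose and none fell (median 1.05), against 6.82% of all genes higher. Isg15, a ubiquitin-like modifier (chr4:156199424-156200818), had levels of 1.47 CPM in control, 11.3 in OB, 8.78 in siDNMT1 and 25.6 in siDNMT1_OB, a log2 fold change of 1.54 (1.33 to 1.77). It was thus higher in siDNMT1 than in control before induction. Among OAS family genes, most of whose products sense double-stranded RNA, Oas2 rose from 20 to 256 counts (3.49), Oas1a from 21 to 107 (2.18) and Oasl2 from 122 to 547 (2.08). Tetherin (Bst2), which holds budding viruses at the cell surface, rose from 1054 to 4019 counts (1.87), Ifit3 from 326 to 857 (1.33), the sensor Ifih1 from 66 to 284 (2.01) and the guanylate-binding protein Gbp3 from 99 to 466 (2.15). The transcription factor Irf7 rose from 186 to 416 (1.09), and Stat2 (0.91) and Irf9 (0.66) were above 0 without passing. Of the 72 genes 68 were nearer to 0 than with control siRNA, against 8996 of all 13233 genes tested. Under control siRNA 51 of the 72 rose and 2 fell (median 1.54). In siDNMT1_OB against siDNMT1, 24 were higher with an assumed coefficient of variation of 0.2, and 1 with 0.4.

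Oas1a is printed because its promoter holds overlapping interferon-stimulated response element cores right before the start. The 250 bases (RefSeq, GRCm38.p6, chr5:120907526-120907775, minus strand) carry GAAANNGAAA 20 to 11 and 14 to 5 bases before the start, in capitals.
Oas1a: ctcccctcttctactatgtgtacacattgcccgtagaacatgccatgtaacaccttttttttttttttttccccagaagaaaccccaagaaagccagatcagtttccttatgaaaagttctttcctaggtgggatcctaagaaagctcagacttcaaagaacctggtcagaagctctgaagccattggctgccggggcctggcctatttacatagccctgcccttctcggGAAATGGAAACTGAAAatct
GAAANNGAAA, searched on both strands, was in 22 of 63 promoters of the interferon-stimulated list (34.9%), those of Isg15, Ifit1, Ifit3, Bst2, Gbp3 and Stat2 included, and in 2.98% of 32851 promoters.

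All 22 tested MHC class I genes were above 0, and 8 rose (median 0.57), among them H2-K1 (80 and 192 counts, 1.18), H2-D1 (127 and 311, 1.22), the immunoproteasome subunit Psmb8 (14 and 69, 2.09) and the peptide transporter Tap2 (194 and 535, 1.39), with B2m at 0.66. An assumed coefficient of variation of 0.2 left 4 MHC class I genes higher, and 0.4 left none. Of 17 complement genes 10 rose and 1 fell (median 1.23). C3, the hub of the cascade, went from 9 to 538 counts (5.55, 4.90 to 6.98), with levels of 0.258, 78.8, 0.351 and 20.1 CPM in control, OB, siDNMT1 and siDNMT1_OB. The proteases C1s1 (149 and 1507, 3.26) and C1ra (529 and 1817, 1.71) rose, as did the inhibitors Serping1 (21 and 235, 3.30) and clusterin (Clu, 117 and 2773, 4.48). Cd55, another inhibitor, fell from 31 to 14 counts (-1.10).

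Of 20 genes that write, erase or read DNA methylation none rose and Gadd45a fell (5% lower, against 2.71% of all genes), with a median of -0.09. Uhrf1, the partner that guides DNMT1 to replicating DNA, was at -0.89, Dnmt3a at -0.25, Dnmt3b at -0.69, and the oxidase genes Tet1 and Tet2 at 0.73 and 0.15. Of 27 imprinted genes 3 rose and 4 fell (median 0.11), or 11.1% and 14.8%, against 6.82% and 2.71% of all genes. H19, a non-coding RNA (chr7:142575529-142578143), rose from 11 to 117 counts (3.13), Mest from 2036 to 4767 (1.16) and Plagl1 from 154 to 499 (1.62), whereas Peg10 fell from 816 to 279 (-1.60), Slc38a4 from 66 to 17 (-1.90), Mkrn3 from 55 to 26 (-1.08) and Dlk1 as given above. None of 9 Hox genes passed (median -0.21). Clustered protocadherins, whose promoters are chosen by methylation in neurons, were above 0 in all 25 tested genes, and 9 rose (median 0.85), for example Pcdhb11 (55 and 176, 1.58) and Pcdhb8 (12 and 60, 2.09). Of the 9, 3 were called with an assumed coefficient of variation of 0.2 and none with 0.4. Of 43 forkhead, KLF and TBX factors 4 rose (9.30%, against 6.82% of all genes), all KLF genes (Klf2, Klf5, Klf9 and Klf15), and Foxm1 fell. Of 34 germline and pluripotency genes 4 could be tested, and Tdrkh fell (141 and 56, -1.36).

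Genes with large increases, most of them outside the lists, had varied functions. Haptoglobin (Hp), an acute-phase protein, went from 11 to 971 counts (6.16), the sulfotransferase Sult1a1 from 6 to 644 (6.27), the steroid sulfate carrier Slc10a6 from 1 to 167 (5.75, 4.82 to 12.63), the tetraspanin Tspan18 from 7 to 636 (6.08) and the chloride channel regulator Clca3a1 from 16 to 802 (5.42). Large decreases included the neuropeptide Vip (230 and 15 counts, -3.83), the transcription factor Bcl11b (261 and 39, -2.74), the synaptic adhesion gene Lrrtm2 (244 and 39, -2.64), Trim66 (127 and 17, -2.82) and the annexin Anxa8 (1238 and 222, -2.53). Ranked by reads gained, the order was different. Postn gained 3662 CPM and Malat1, a nuclear non-coding RNA, 3074 CPM (73966 and 159505 counts, 1.05), followed by Lox, Vim (0.34), Vcan, Col1a2, Col12a1, Scd2 (0.89), Col6a1 and cystatin C (Cst3, 8280 and 32886, 1.93). The changes of Fn1 and of the elongation factor Eef1a1 were -4054 CPM and -2188 CPM (log2 fold change of Eef1a1, -0.35), followed by Eef2 (-0.40), Hsp90ab1 (-0.66) and Rpsa (-0.60). The 20 largest gains held 20.2% of all CPM gained and the 20 largest losses 14.3% of all CPM lost, and genes that rose carried 34.8% of the gain while genes that fell carried 8.51% of the loss.

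The other induction in the series, OB against control with control siRNA, shares no library with this one and serves as a side-by-side reading. There 1404 genes were higher (10.6%) and 940 lower (7.10%). Across the 13233 genes the log2 fold changes of both inductions had a Pearson correlation of 0.854 and a Spearman correlation of 0.780, as a description over genes that are not independent. Of the 903 genes higher here 773 were higher there, and of the 358 lower here 292 were lower there. Most of the others had the same sign there: 113 of 130 and 59 of 66. Conversely 631 genes were higher and 648 lower with control siRNA only by these thresholds, and their medians here were 0.66 and -0.66. The same-signed change was the larger with control siRNA for 588 of the 903 higher and 255 of the 358 lower genes. Over all 13233 genes tested, 8996 were nearer to 0 here than with control siRNA, whatever their sign. None of these differences between siRNAs was tested, and the Dnmt1 values above apply to them.

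The plots of both inductions show where the lists part. Prolactin-family genes Prl2c2 and Prl2c3 had 4330 and 1790 counts in control, 158 and 55 in OB, 205 and 86 in siDNMT1 and 102 and 35 in siDNMT1_OB, so their log2 fold changes were -1.05 and -1.31 here and -4.50 and -4.72 with control siRNA. The chemokine Ccl2 had 548, 123, 135 and 229 counts in the same order, with changes of 0.69 here and -1.88 there. The interferon-stimulated genes Ifi44 and Mx2 had changes of 1.19 and 1.04 here and 4.11 and 3.55 there, the WNT inhibitor Sfrp2 -0.13 and 2.53, and the phosphodiesterase Gdpd2 5.32 and 8.18. List medians differed in the same way for DNA replication (-0.72 and -1.86), mitosis (-1.08 and -2.19), chondrocyte (0.94 and 2.02), immediate early (-0.53 and -1.08), glycolysis and hypoxia (-0.36 and -0.78) and ribosome biogenesis genes (-0.36 and -0.78). They were closer to each other for glucocorticoid-responsive (1.72 and 1.77), collagen (0.85 and 0.96) and ribosomal protein genes (-0.38 and -0.40). Medians further from 0 here included those of cholesterol synthesis (0.86 and -0.01), fatty acid synthesis (0.53 and 0.14) and IGF axis genes (0.70 and 0.34). The IGF axis median here moved with the filter, as given above.

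**Figure D4:**
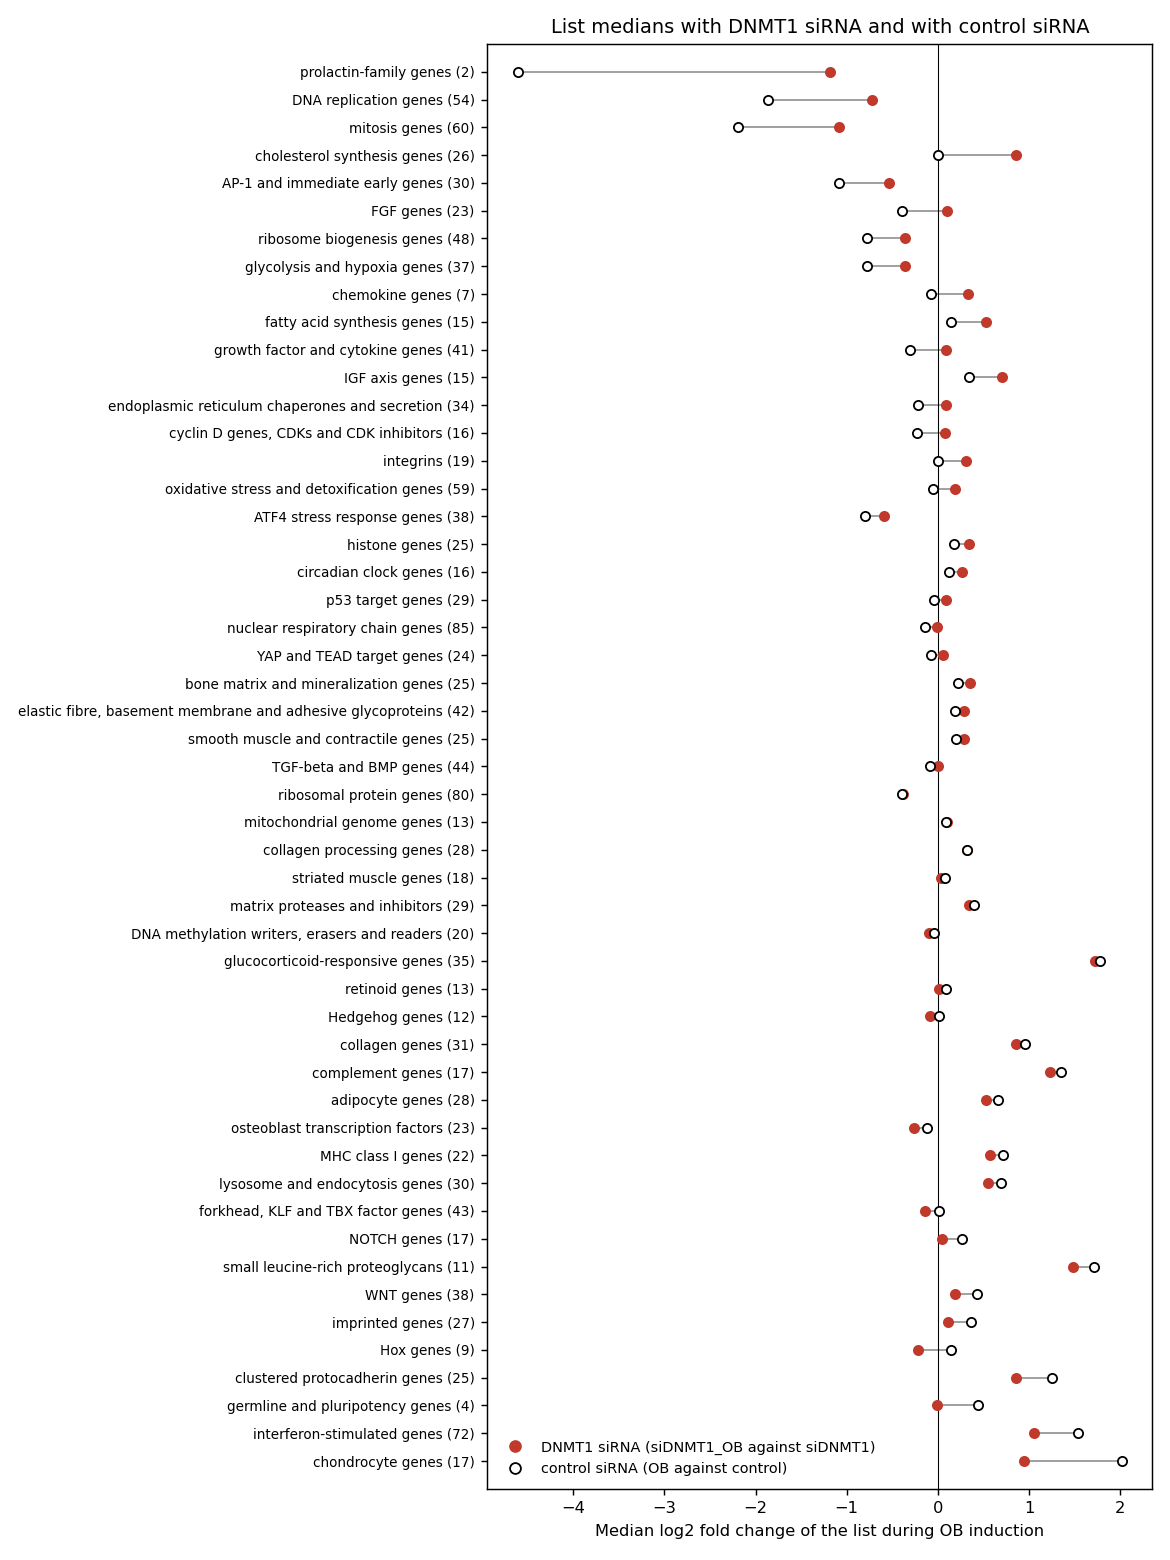
Median log2 fold change of each of the 51 lists during OB induction (x axis), ordered by the difference. Filled red marks siDNMT1_OB against siDNMT1 and open marks OB against control. DNA replication and mitosis genes lie nearer to 0 for siDNMT1_OB against siDNMT1. Cholesterol synthesis genes lie at 0.86 there and at -0.01 for OB against control, and glucocorticoid-responsive genes nearly coincide at 1.72 and 1.77.

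**Figure D5:**
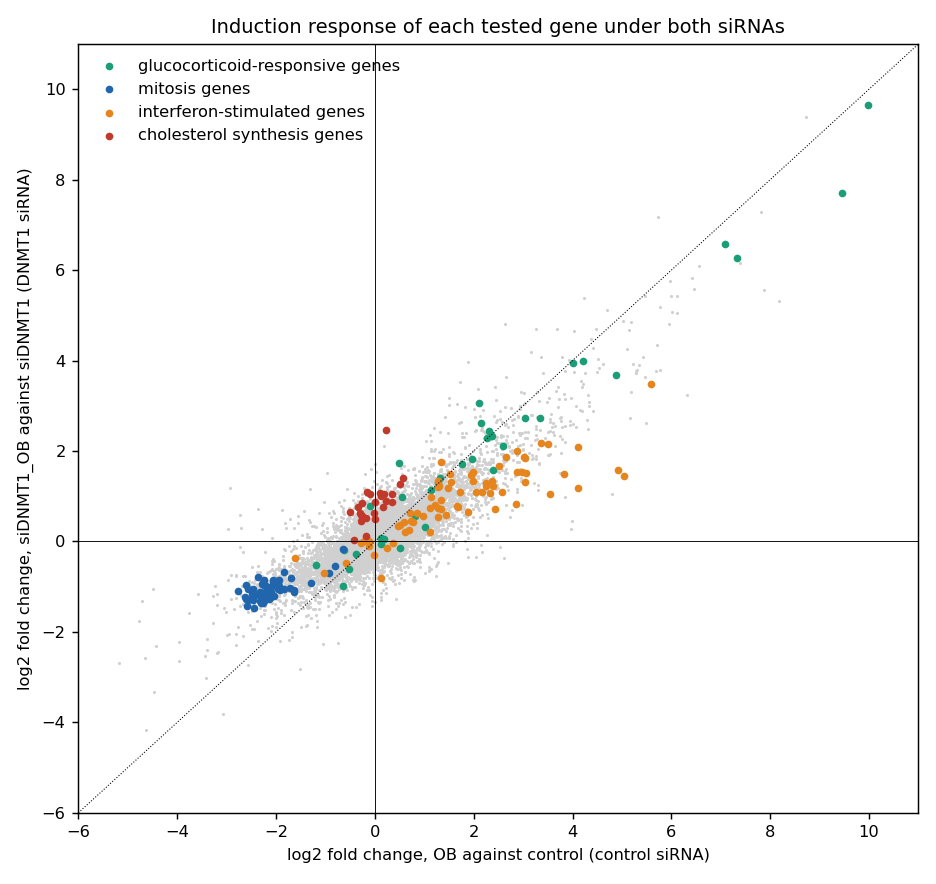
Each point is 1 of the 13233 genes tested, with its log2 fold change for OB against control (x axis) and for siDNMT1_OB against siDNMT1 (y axis). The dotted line marks equal change and colours mark 4 lists. Mitosis genes (blue) and most interferon-stimulated genes (orange) lie between the dotted line and the x axis, glucocorticoid-responsive genes (green) follow the line, and cholesterol synthesis genes (red) lie above 0 on the y axis around 0 on the x axis.

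The library kit does not mark strand, so counts of a gene whose exons overlap a gene on the opposite strand can hold reads of both. Of the genes above this concerns Sult1a1 (with Sgf29), Cebpd (Spidr), Nr1d1 (Thra), Dbp (Sphk2), Smpd3 (Prmt7), Plin4 (Hdgfl2), Tgm2 (Rprd1b), Mmp19 (Tmem198b), Fgf2 (Nudt6), Fgf14 (a predicted gene), Cebpb (Tmem189), Junb (Prdx2), Cdc20 (Elovl1), Irf7 (Phrf1), Mest (Copg2), Col4a1 (Col4a2) and Gadd45a. Exons of Fgfr2 overlap Ctbp2 on the same strand, those of Tm7sf2 overlap Vps51 and those of Irf9 overlap Rnf31. Genes with near-identical copies are uncertain too: 89.5% of 50-base runs of Prl2c2 and 78.6% of Prl2c3 were found in another gene, 59.2% of Eef1a1, 57.6% of Oas1a, 51.2% of Ifit3, 50.8% of C1ra, 43.9% of Rpsa and 42.1% of Ccnb1.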

How the data were processed

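RNA was measured in 4 libraries of the mouse cell line, 1 per group. Per the study's methods, total RNA was extracted with Trizol, and poly(A) RNA purified from it was made into TruSeq RNA libraries with a kit that does not mark strand, and sequenced paired-end. Reads were trimmed with Trimmomatic, aligned to mm10 with HISAT2, and featureCounts gave the count of each gene. The tool versions of the RNA processing and the counter's strand setting are not given in the sources used here. Without strand a gene and an antisense gene over the same exons cannot be told apart. The authors deposited raw read counts per gene, which were used as deposited. Of 54532 genes in the table, 27152 had no counts in any library.

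Genes with a mean of at least 1 CPM (counts scaled to library totals) over the 4 libraries were kept, and libraries were scaled with TMM factors (edgeR 4.0.16, R 4.3.3). Log2 fold changes used a prior count of 2. A gene was called where the log2 fold change was 1 or more in size and the two-sided exact binomial p of its reads in both libraries, adjusted over all genes tested by Benjamini and Hochberg's method, was under 0.05 (scipy 1.17.1, Python 3.11.15). This test compares 2 libraries, not the conditions. Intervals are 95% Clopper-Pearson intervals of the reads and cover counting error only. Genes at or under 3 counts in the lower library were ranked by their fold against a floor of 3 counts, which is printed as a bound for genes at 0 counts, and genes at 1 to 3 counts are given with their interval. The read test was checked on simulated counts with known changes. Promoter sequences were read from the RefSeq table.

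The genes named follow this rule: Dnmt1, the 15 highest and 15 lowest genes called, the 10 largest gains and 10 largest losses in CPM, each list's core members with its 3 highest and 3 lowest tested members, the 5 largest and 5 smallest differences between the siRNAs among genes with at least 10 counts in each library, and any gene called in opposite directions. Further list members were named as examples after their values were seen. The members and the 51 lists were chosen with earlier results of these data known. Alternatives were other scalings, filters, prior counts, thresholds and tests (edgeR; DESeq2 1.42.0). Some genes are not reported here.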

Additional observations from a re-analysis of the deposited data

Results flagged for a closer look

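Adcyap1r1, the receptor of the neuropeptide PACAP, was the only gene called in opposite directions in the 2 inductions, siDNMT1_OB against siDNMT1 and OB against control. From siDNMT1 to the library labelled siDNMT1_OB it rose from 48 to 115 counts, from 1.87 to 4.30 CPM, a log2 fold change of 1.16 (95% interval 0.70 to 1.72). With control siRNA it fell from 169 to 56 counts, from 6.23 to 2.48 CPM, a log2 fold change of -1.30. The uninduced control library was the highest of the 4 and the uninduced siDNMT1 library the lowest. The difference between the inductions was not tested, since each group held 1 library, and Dnmt1 was not lower in siDNMT1_OB than in OB.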

How the results depend on the processing

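Each group held 1 library, so the spread between cultures is unknown, no library could be left out, and every call compares 2 libraries. No pairing by replicate was possible because each group held 1 library and the columns carry no replicate numbers. Against 903 genes called higher and 358 lower, scaling by total counts, upper quartile factors or DESeq2 size factors gave 893 to 912 higher and 349 to 362 lower. No filter gave 1421 and 562 of 24990 genes, a mean of at least 5 CPM gave 509 and 229 of 10827, where the number of genes tested changed, and a size threshold of 1.5 gave 441 and 73. With an assumed coefficient of variation the counts were 500 and 105 at 0.2 (82.6% of calls higher) and 65 and 2 at 0.4 (97.0%), against 71.6% in the main analysis. Fits over all 4 libraries with siRNA as an additive term, which average both inductions, gave 952 and 549 (63.4% higher) in edgeR and 859 and 537 (61.5%) in DESeq2. TMM factors over all genes, chosen after seeing the data, gave 868 and 389. Without a filter the list medians were 0.41 for smooth muscle genes, 0.60 for matrix proteases and inhibitors, 0.47 for the IGF axis, -0.38 for histones and 0.89 for complement. At a mean of at least 5 CPM they were 0.53 for chondrocyte genes, 0.35 for the IGF axis, -0.090 for FGF genes and -0.13 for histones. With protein-coding genes alone they were 0.64 for matrix proteases and 0.049 for Hedgehog genes, and with TMM factors over all genes the mitochondrial genome stood at 0.068. These settings change which members are tested or the scale, and beyond that the cause was not tested. The other list medians moved little, 446 of 458 in all, although the histone median (0.34) turned negative as given above and medians near 0 changed sign for retinoid, TGF-beta and BMP, Hedgehog, germline, striated muscle, FGF, NOTCH, cyclin D and imprinted genes. Of 4144 alternative values of named genes 50 moved, most of them with TMM factors over all genes, and none reversed. Pfkl, Cd55 and F3 dropped below the size threshold under at least 1 setting, and Bcl6, Ciart, Mmp16 and Nrg1 passed it with TMM factors over all genes.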

Other observations

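Several gene families, some of whose members are also in the lists (Cyp26b1 and Slc7a11, for example), were chosen after their values were seen, and are given as a description with no test, beside 6.82% of all genes tested higher and 2.71% lower. Of 14 tested semaphorins, guidance ligands that bind plexins and neuropilins, 6 rose and none fell, with a median log2 fold change of 0.86. Sema3d rose from 120 to 734 counts (2.53), Sema3b from 70 to 467 (2.64) and Sema5a from 271 to 1031 (1.86), while Sema7a went from 167 to 141 (-0.30). All 13 tested ADAM proteases, membrane proteins that include the main sheddases, had positive values, and 5 of them rose, among them Adam12 from 1079 to 2700 counts (1.26) and Adam23 from 717 to 1800 (1.26). The sheddases Adam10 and Adam17 were at 0.08 and 0.17 and were not called.

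Among 11 voltage-gated calcium channel subunits 5 rose. Cacna1g, which encodes a T-type channel pore, rose from 92 to 1877 counts (4.26), and Cacna1h, another T-type pore, from 12 to 107 (2.90). The family's median was 0.10. The flavin monooxygenases Fmo1 and Fmo5, rose from 93 to 2020 counts (4.35) and from 22 to 65 counts (1.42). Of 15 cytochromes P450, 4 rose and 1 fell. Cyp4v3 rose from 206 to 733 counts (1.76), and Cyp26b1, which clears retinoic acid, fell from 736 to 375 (-1.03). Among 15 tetraspanins 4 rose, with Tspan18 moving from 7 to 636 counts (6.08). Of 5 small heat shock proteins 2 rose, Hspb7 from 23 to 477 counts (4.20) and Hspb1 from 80 to 420 (2.30).

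Of 176 solute carriers 18 were higher and 5 lower, shares of 10.2% and 2.84%. Slc4a4, a sodium bicarbonate cotransporter, rose from 668 to 3145 counts (2.17), and Slc23a2, an ascorbate transporter, from 1562 to 4419 (1.44). The amino acid transporters Slc7a5 and Slc7a11 fell from 7372 to 3625 (-1.09) and from 452 to 193 (-1.28), and Slc40a1, the iron exporter ferroportin, fell from 156 to 40 (-1.97). The 30 SR and hnRNP splicing factors had a median of -0.39, with 27 of them below 0 and none called.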
